A study of Zea mays with 12 samples.

Results

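The m6A peak lists of the maize inbred line Mo17, read over the total RNA levels of the same line, are described here. They comprise 4 of the 12 samples of the series, chosen by their labels: 2 m6A-seq peak lists and 2 RNA-seq tables of Mo17 seedlings. The lists held 16379 peaks in replicate 1 and 14846 in replicate 2, together 31225 of the 64785 peaks listed for Mo17 and B73. The seedlings were 14 days old, from a growth cycle of 28 °C during 16 h light and 25 °C during 8 h dark. B73, the maize inbred line whose genome is the usual reference, was grown and profiled in the same way and serves as the comparison, with 2 peak lists and 2 RNA tables. Both are inbred lines with no treatment or transgene named in the labels. Nothing in the labels says whether replicates came from separate plants, so the spread between them may be technical.

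N6-methyladenosine (m6A) is a methyl mark on adenosines inside messenger RNA. In plants it is placed by a methyltransferase complex that includes MTA, MTB and the cofactor FIP37, and it is bound by YTH-domain proteins such as the ECT family. It is known to gather near stop codons and in 3′ untranslated regions and to influence transcript stability and translation. In m6A-seq, RNA is fragmented, fragments that carry the mark are pulled down with an antibody, and regions enriched over a control are called as peaks. A peak therefore marks a stretch of RNA and not a single base. No peak sequence or motif was read here.

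Each peak was placed by its summit, the base of highest enrichment. The summit lay in the span of exactly 1 Mo17 gene (from annotated start to end, introns included) for 12417 peaks (75.8%) of replicate 1 and 11358 peaks (76.5%) of replicate 2. Spans of several genes shared the summit of 197 and 188 further peaks. When the same summits were read against the B73 gene spans, 9.70% and 9.75% lay in exactly 1 span. The coordinates thus fit the Mo17 models far better. The RNA tables gave 37844 Mo17 genes with a usable span, and their FPKM (fragments per length of transcript and library total) summed to 665890 and 669814. Genes that reached an FPKM of 1 in each RNA library were taken as expressed, which left 19237. The tables hold no gene names for Mo17 and no depth, so tissue markers were not checked and no counting interval is given.

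Mo17 peaks were short and moderately enriched. The median width was 132 bp in replicate 1 and 137 bp in replicate 2 (134.5 ± 3.54 bp, SD, n = 2). The central 80% of peaks in replicate 1 ran from 60 to 271 bp, and in replicate 2 from 61 to 276 bp, while the widest peaks reached 2382 and 2616 bp. The narrowest peaks were 50 and 49 bp wide. The authors' fold enrichment had a median of 6.81 in replicate 1 and 7.0 in replicate 2 (6.91 ± 0.131, SD, n = 2), with 5% of the peaks under 3.19 and 3.40 and 5% above 15.2 and 15.3. Wider peaks had higher folds. In the narrowest of 5 equal groups by width the median fold was 6.11 in replicate 1 and 6.14 in replicate 2. In the widest group it was 8.54 and 8.57, a gap larger than the difference between the lists.

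Of all peaks, 81.5% in list 1 and 88.4% in list 2 overlapped a peak of the other list. Where peaks overlapped, the lists were close in position and less close in fold. Of 12677 pairs of peaks that overlapped one to one, the summits lay a median of 8 bp apart, and 89.0% lay within 50 bp of each other. Short peaks that overlap have nearby summits, so this closeness is partly set by the choice of overlapping pairs. The fold of the same pair was within 1.5 times for 71.9% of the pairs. Across these pairs the Spearman correlation of fold was 0.613, as a description, since pairs from 1 library share its depth and are not independent replicates. Recovery was highest for the strongest peaks. Among peaks of 10-fold or more, 98.8% of those in list 1 and 99.4% of those in list 2 overlapped a peak of the other list. From 5-fold to under 10-fold, which held 9290 and 8365 peaks, the shares were 77.1% and 87.0%. Below 5-fold they were 76.7% and 80.4%, so that list 1 hardly differed between these lower classes.

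Most Mo17 genes with a peak had exactly 1. In replicate 1, 7953 of 9533 genes with a peak (83.4%) had 1 peak, 1107 had 2 and 473 had 3 or more. In replicate 2, 7922 of 9167 (86.4%) had 1, 867 had 2 and 378 had 3 or more. Genes with 1 peak were thus nearly equal in number in both lists, and replicate 1, the longer list, held more genes with several peaks. The mean was 1.30 peaks per gene in replicate 1 and 1.24 in replicate 2. The number was identical in both lists for 7558 of the 8668 genes with a peak in each (87.2%). It was higher in list 1 for 783 genes and in list 2 for 327. Genes with 3 or more peaks made up 4.96% and 4.12% of the genes with a peak but held 18.1% and 15.0% of the peaks placed in a single gene. A total of 310 genes had 3 or more peaks in both lists and 105 had 5 or more in both. With peaks of −log10 q of at least 10 alone, the share of genes with 2 or more peaks was 5.36%, against 15.1% ± 2.12 (SD, n = 2) with all peaks.

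**Figure D1:**
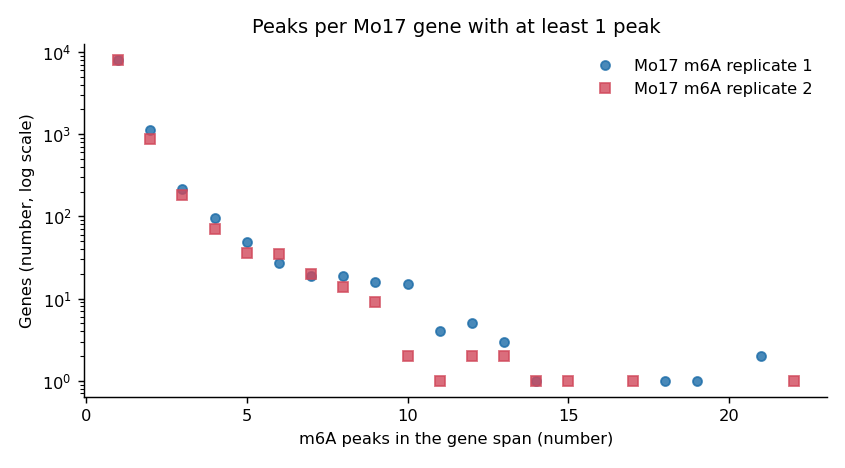
Number of Mo17 genes (log scale) against the number of m6A peaks in the gene span, with 1 symbol for each count in each replicate list. Genes with 1 peak number 7953 and 7922, and single genes reach 21 peaks in replicate 1 and 22 in replicate 2.

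Genes with several peaks were long. The median span was 5131 bp for genes with 1 peak in replicate 1, 8436 bp for genes with 2 and 16863 bp for genes with 3 or more. In replicate 2 the medians were 5227.5, 9385 and 17820.5 bp. RNA levels differed less, with median FPKM of 9.62, 8.39 and 8.56 in replicate 1 and of 9.81, 9.16 and 8.04 in replicate 2. Neighbouring summits within a gene lay a median of 982.5 bp apart in replicate 1 and 1360 bp in replicate 2. Of all peaks in genes with 2, 56.5% in replicate 1 and 51.8% in replicate 2 lay within 600 bp of the 3′ end, and of those in genes with 3 or more, 19.3% and 18.9%. The peak nearest the 3′ end, for which a short distance is partly set by that choice, lay at a median of 244 bp in replicate 1 and 255 bp in replicate 2, and 82.0% and 81.4% of such peaks lay within 600 bp of the end. The remaining peaks of these genes lay a median of 6065.5 and 6567 bp from the end. Their median fold was 6.12 in replicate 1 and 5.79 in replicate 2, against 7.44 and 7.92 for the peak nearest the end. In genes with exactly 2 peaks, the one nearer the end had the higher fold in 68.8% of genes in replicate 1 and 70.8% in replicate 2, where an even split would give 50%.

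Among the 6 expressed genes with the most peaks, chosen for that number, 3 had no peak within 600 bp of the 3′ end in either list. Zm00014a_030343 (chromosome 1, 119913724 to 119953571, minus strand) had 21 peaks in replicate 1 and 22 in replicate 2 over a span of 39848 bp, with FPKM of 21.5 and 19.6. Its peaks covered 16.5% and 14.5% of the span, and none lay within 600 bp of the 3′ end in either list. Its span overlaps that of 1 other gene. Zm00014a_042050 (chromosome 8, 88186053 to 88213250, minus strand) had 21 and 17 peaks in 27198 bp, with FPKM of 6.18 and 7.82. The peaks of Zm00014a_042050 covered 21.8% and 16.5% of the span, and 1 peak in each list lay at the 3′ end, 211 and 203 bp from it. Both genes therefore carried long runs of interior peaks, and the widest peak was 1562 and 1135 bp in Zm00014a_030343 and 1424 and 888 bp in Zm00014a_042050.

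Zm00014a_034169 (chromosome 6, 142180386 to 142229461, plus strand) had 19 peaks in replicate 1 and 15 in replicate 2, one of them 225 and 224 bp from the 3′ end. Zm00014a_000207 (chromosome 9, 136454921 to 136482367, plus strand) had 18 and 14 peaks, the widest of 1865 and 1870 bp. Zm00014a_007302 (chromosome 5, 147889235 to 147945482, minus strand) had 13 peaks in each list and Zm00014a_020450 (chromosome 6, 119011797 to 119058890, minus strand) had 12 and 13. In Zm00014a_007302 and Zm00014a_020450 no peak lay within 600 bp of the 3′ end: the nearest were 8773 and 6576 bp away in the former and 9332 and 9640 bp in the latter. Peaks over 500 bp wide made up 3.16% and 4.17% of the peaks in genes with 3 or more peaks, against 0.138% and 0.265% of those in genes with 1. At a −log10 q of at least 10 the mean number per list in these 6 genes was between 0.5 and 7.5.

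Distances from summit to annotated 3′ end had a single sharp mode. In replicate 1 the commonest 50 bp window was 150 to 200 bp from the end, with 1424 of 12417 summits (11.5%), and in replicate 2 it was the same window, with 1356 of 11358 (11.9%). The stretch from 100 to 300 bp held 40.4% and 41.9% of the summits, and that from 300 to 600 bp held 21.4% and 22.0%. Few summits lay closer: 1.03% and 1.05% were within 50 bp of the end. A broad tail lay further inside, with 23.0% and 20.7% of summits at least 2000 bp from the end. Genes on both strands gave nearly the same median distance, 330 and 314 bp on the plus strand and 321 and 309 bp on the minus strand. The 5′ end was nearly free of peaks, with 1.11% and 0.933% of summits within 300 bp of the start.

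In genes with 1 peak, the median distance changed little with the length of the gene. Genes with several peaks, which were longer and had more interior peaks, are left out here. The genes with 1 peak were split into 5 equal groups by span. In the shortest group, with a median span of 2601 bp in replicate 1 and 2668 bp in replicate 2, the summit lay a median of 242 and 239 bp from the end. In the longest group, with median spans of 12318 and 12625 bp, it lay 286 and 298 bp from the end. The difference in median distance was 44 and 59 bp in the separate lists (51.5 ± 10.6 bp, SD, n = 2), larger than the spread between lists. It was 82.2 bp when spans were extended by 500 bp. The upper quartile of distance rose more, from 364 and 353 bp in the shortest group to 593.5 and 598 bp in the longest. Expressed along the gene, the median summit moved from 89.9% of the span in the shortest group to 97.7% in the longest in replicate 1, and from 90.4% to 97.7% in replicate 2. Summits within 600 bp of the end made up 89.4% and 90.9% of the shortest group and 75.2% and 75.1% of the longest. An even spread over the span would give 28.3% and 27.4% in the shortest group and 4.67% and 4.55% in the longest.

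**Figure D2:**
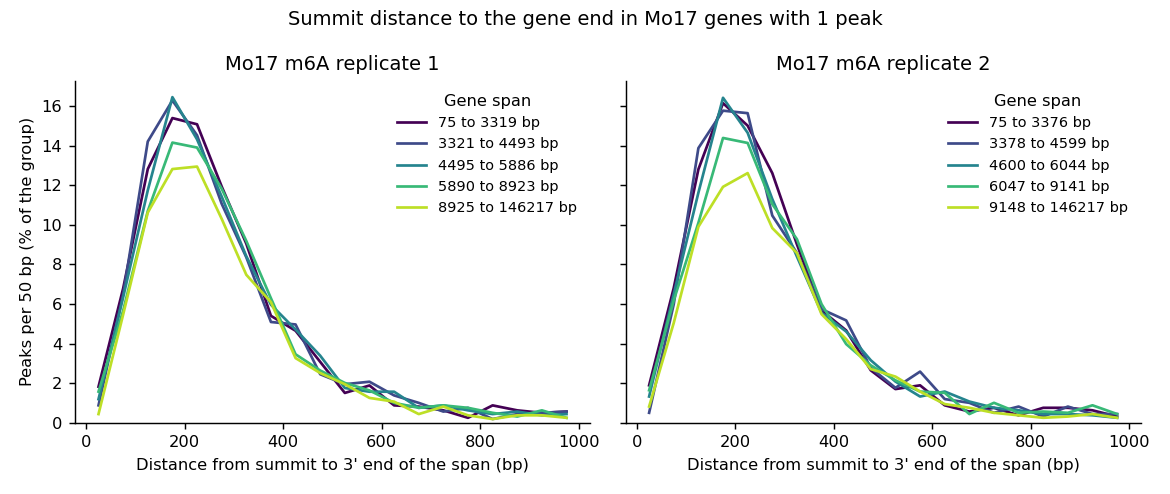
Share of summits (percent of the group per 50 bp) against the summit's distance from the 3′ end of the gene span, for Mo17 genes with 1 peak in 5 equal groups by span, in each replicate list. All 5 curves peak between 100 and 300 bp in both lists, and the longest genes have a lower peak, with 75.2% and 75.1% of their summits within 600 bp.

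Peaks near the 3′ end were also the stronger ones. Summits under 100 bp from the end had a median fold of 7.95 in replicate 1 and 8.11 in replicate 2, those from 100 to under 300 bp 7.44 and 7.67, and those from 300 to under 600 bp 6.56 and 7.0. From 600 to under 2000 bp the medians were 5.78 and 6.14, and from 2000 bp on they were 6.22 and 6.13. Peaks were widest from 300 to under 600 bp, with medians of 160 and 164 bp, and narrowest from 2000 bp on in replicate 1, at 112 bp, where replicate 2 had 118 bp both there and under 100 bp. Median FPKM of the genes ranged from 7.65 to 10.3 over these groups and both lists.

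The expressed genes with the highest folds in both lists had their strongest peak close to the 3′ end, and were chosen for that fold, which is given as a description. Zm00014a_000209 (chromosome 9, 136212069 to 136226982, minus strand) had folds of 29.8 and 29.8, with the summits 132 and 134 bp from the end. Zm00014a_031947 (chromosome 9, 8942496 to 8951629, minus strand) had folds of 27.5 and 25.8 at 283 and 303 bp. Zm00014a_000734 (chromosome 7, 170271716 to 170290947, plus strand) had folds of 27.0 and 25.2 at 125 and 127 bp. In each of these genes the lists placed the summit within 20 bp of each other. Replicate 1 had a second peak in Zm00014a_031947, 8990 bp from the end, and the spans of Zm00014a_031947 and Zm00014a_000734 each overlap 1 other gene.

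Zm00014a_036887 (chromosome 1, 256884501 to 256888793, plus strand) had folds of 24.9 and 25.8 at 117 and 109 bp from the end, and was left without a peak of its own when spans were extended by 500 bp. Zm00014a_021903 (chromosome 10, 102767098 to 102787252, minus strand) had folds of 28.2 and 23.4, with the summit at 212 bp in both lists. Zm00014a_002571 (chromosome 3, 22884515 to 22892841, minus strand) had 2 peaks of near equal strength in each list, at 161 and 502 bp in replicate 1 and at 164 and 502 bp in replicate 2. Its folds there were 26.6 and 26.9 in replicate 1 and 24.8 and 24.4 in replicate 2. The mean FPKM of these 6 genes ran from 2.75 to 12.1.

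Against B73, the Mo17 summits lay further from the annotated gene ends. The median distance was 325 and 312 bp in Mo17 and 232 and 215 bp in B73, a difference of 95 bp, and the lists of the lines did not overlap (exact permutation test over samples, two-sided, p = 0.333). Right at the end, 6.02% and 6.19% of Mo17 summits lay under 100 bp from it, against 17.0% and 18.2% in B73. The share of summits in exactly 1 span differed by −7.98 percentage points, Mo17 minus B73 (75.8% and 76.5% against 83.4% and 84.9%, exact permutation p = 0.333). Median width was 132 and 137 bp against 126 and 131 bp, which did not overlap (exact permutation p = 0.333). Median fold, the share of peaks found in the other list and the number of peaks per gene overlapped between the lines (exact permutation p = 0.667, 1 and 0.667). With 2 lists a line, 0.333 is the smallest p the test can give, so none of these could pass 0.05. The lines were placed on different gene models, and a difference in the models cannot be told apart from one in the RNA.

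Between whole chromosomes, peak density varied much as the density of expressed genes did. Chromosome 5 had the highest density, 9.03 and 8.11 peaks per Mb in replicates 1 and 2, and chromosome 4 the lowest, 6.55 and 5.89. The ratio of the extremes was 1.38 in both lists. Expressed genes had nearly the same ratio and the same extremes, 10.4 per Mb on chromosome 5 and 7.70 on chromosome 4. Counted per 1000 expressed genes, the 10 chromosomes ranged from 794.5 to 890.2 peaks in replicate 1 and from 730.9 to 789.7 in replicate 2, a ratio of 1.12 and 1.08. Chromosome 8 had the lowest value in both lists, while the highest was on chromosome 10 in replicate 1 and on chromosome 2 in replicate 2. The share of expressed genes with a peak in both lists ran from 40.8% on chromosome 7 to 44.5% on chromosome 5.

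Peaks were densest at the chromosome ends, and a larger share of them lay outside genes in the middle. In the outer 10% at both ends of each chromosome there were 12.8 peaks per Mb in replicate 1 and 11.5 in replicate 2. In the middle 20% there were 4.54 and 4.12. Expressed genes numbered 16.1 and 4.72 per Mb at the ends and in the middle. All peaks, those outside gene spans included, were then set against expressed genes. Per 1000 expressed genes the middle had 963.7 and 873.0 peaks, against 794.8 and 714.3 at the ends. In 20 equal bins of relative position, peaks per 1000 expressed genes ranged from 750.0 at 75% to 80% of the length to 1229 at 35% to 40% in replicate 1, and from 682.0 to 1089.9 in the same bins in replicate 2. The share of expressed genes with a peak in both lists was 42.2% in the middle and 42.1% at the ends. Summits outside every gene span made up 30.5% and 30.1% of the peaks in the middle zone and 20.7% and 19.8% at the ends, a gap larger than the difference between the lists.

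**Figure D3:**
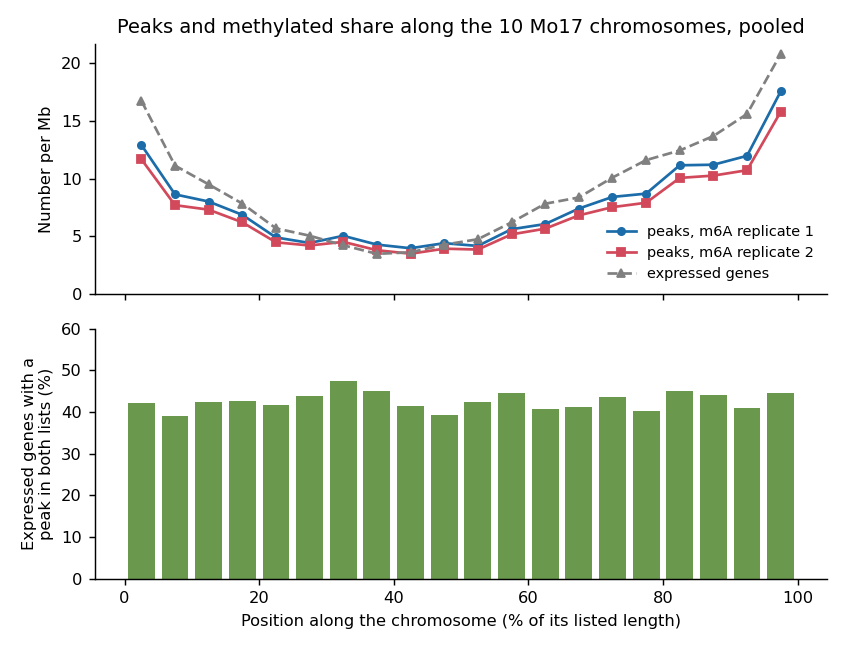
Peaks per Mb in each replicate list and expressed genes per Mb (top), and the percent of expressed genes with a peak in both lists (bottom), in 20 equal bins of relative position pooled over the 10 Mo17 chromosomes. Peak and gene density are high at both ends and low in the middle, while the methylated share stays between 39.1% and 47.4%.

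Methylated genes are those with a summit in their span alone in each of the lists. Of 19237 expressed genes, 8190 (42.6%) were methylated, 9659 had no peak in either list, and 1388 had a peak in a single list or one shared between spans. Counting each list alone, 46.4% of expressed genes had a peak in replicate 1 and 44.8% in replicate 2. Among the 18607 genes that were not called expressed, 478 (2.57%) were methylated. The methylated share of expressed genes was 26.6% with peaks of −log10 q of at least 10 alone, and 22.9% of all genes were methylated with no FPKM filter.

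Gene span separated the methylated genes more than RNA level did. Expressed genes were split into 10 equal groups by span. In the shortest group, up to 744 bp, 22 of 1930 genes (1.14%) were methylated. The share was 29.2% at 2155 to 2906 bp, 54.0% at 3655 to 4465 bp and 81.6% in the longest group, from 10872 bp. Every step between neighbouring groups was upward, in both lists alone as well. The number of peaks in a methylated gene changed little over most of this range, from a mean of 1 in both lists for the shortest group to 1.13 and 1.11 for the eighth group, and was 2.11 and 1.89 in the longest. Per 10 kb of span, peaks in methylated genes numbered 4.22 and 4.15 in the 2155 to 2906 bp group and 1.09 and 0.970 in the longest. A methylated gene has at least 1 peak by definition, so this decline with span is largely set in advance.

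By RNA level, the methylated share was highest in the middle and upper groups and lower at both extremes. In the lowest of 10 equal groups, with a median FPKM of 1.73, 20.9% of genes were methylated. The share was 52.8% in the sixth group (median FPKM 10.2) and 53.2% in the ninth (median FPKM 32.9). In the highest group, with a median FPKM of 89.2, it was 35.3%, and the single lists gave 38.0% and 37.3% there against 55.5% and 54.9% in the ninth. The genes of the highest group were also the shortest, with a median span of 2418 bp against 3407 bp in the ninth group and 4108 bp in the sixth. The contrast of the highest with the lowest group, 14.4 percentage points, depends on the threshold: with peaks of at least 5-fold alone it turned to −12.6 points, and with expressed genes of FPKM 5 or more it was −19.4 points. With no FPKM filter it was 33.2 points. The FPKM limit also sets which genes form the lowest group. Of the genes in the fourth group above, with FPKM of 4.82 to 6.59, 45.0% were methylated.

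Within genes of like span, the methylated share was higher in the highest RNA group than in the lowest in all 5 span groups, although in 3 of them it was below the fourth RNA group. Expressed genes were divided into 5 groups by span and 5 by RNA level. Among genes of 1425 to 2906 bp the share went from 5.82% in the lowest RNA group through 11%, 21.4% and 26.4% to 33.7% in the highest. Among genes of 2907 to 4465 bp it went from 23.1% to 62.3% with no step down. In the group of 4466 to 7133 bp it was 37.3% at the lowest RNA level, 75.9% in the fourth group and 70.7% in the highest, and among the longest genes it was 62.9%, 84.9% and 83.7%. Genes up to 1424 bp had 0.932% in the lowest RNA group, 4.01% in the fourth and 3.23% in the highest. Peak calls need enough signal, and the part of that in the low shares at low RNA level was not tested.

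**Figure D4:**
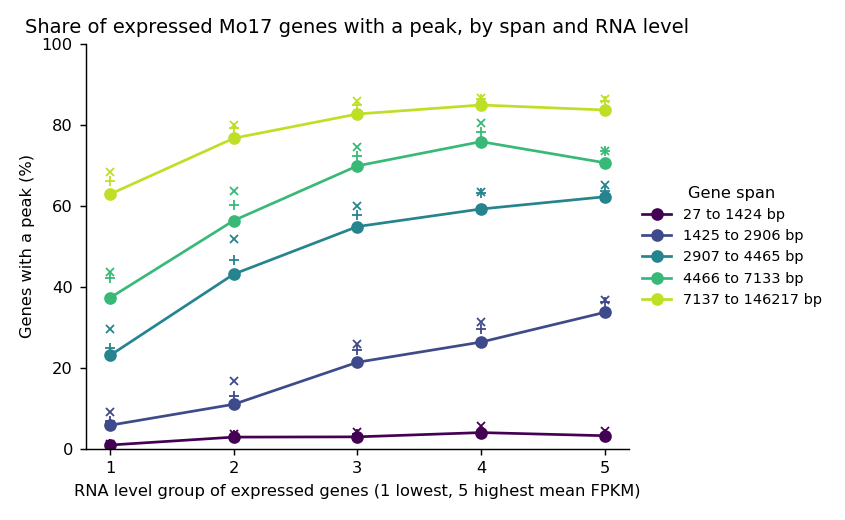
Percent of expressed Mo17 genes with a peak in both lists (circles and lines) against RNA level in 5 equal groups, with 1 line for each of 5 equal groups by gene span. Crosses and plus signs give the share in replicate list 1 and list 2 alone. The lines are ordered by span at every RNA level, from 0.932% in short genes of low RNA to 84.9% in long genes.

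The expressed genes at both extremes of span include exceptions to this order. The shortest methylated expressed genes were Zm00014a_012740 (chromosome 8, 153319390 to 153319464, minus strand) with a span of 75 bp and Zm00014a_029322 (chromosome 6, 24698661 to 24698798, minus strand) with 138 bp. The peak of Zm00014a_012740 was 279 bp wide in replicate 1 and 302 bp in replicate 2, wider than the gene itself, with folds of 8.90 and 6.91. Zm00014a_029322 had folds of 6.15 and 4.80, and the FPKM of its RNA libraries was 8.62 and 3.86. Zm00014a_006041 (chromosome 6, 84260058 to 84260384, minus strand) had a span of 327 bp, FPKM of 155.4 and 154.6, and folds of 2.02 and 2.68. Zm00014a_022865 (chromosome 8, 119771674 to 119772018, plus strand) had a span of 345 bp and folds of 6.09 and 4.36. Zm00014a_012740 and Zm00014a_029322 were left without a peak of their own when spans were extended by 500 bp. At the other extreme, Zm00014a_013557 (chromosome 1, 302545932 to 302656333, minus strand) spanned 110402 bp with FPKM of 20.4 and 22.3 and had no peak in either list. Its span and that of Zm00014a_012456 each overlap 1 other gene. With spans extended by 500 bp, Zm00014a_013557 had a mean of 0.5 peaks per list, that is a peak in 1 list. Zm00014a_037176 (chromosome 2, 215995069 to 216053953, minus strand) had none over 58885 bp at FPKM of 24.5 and 24.5, and neither had Zm00014a_012456 (chromosome 4, 178490097 to 178575118, minus strand; 85022 bp, FPKM of 1.57 and 1.93) nor Zm00014a_036244 (chromosome 3, 97754667 to 97806744, minus strand; 52078 bp, FPKM of 8.13 and 4.35).

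Among called peaks, fold was lower in more abundant transcripts. Peak calls need enough signal, and the part of that in the high folds at low RNA level was not tested. The median fold of peaks in the lowest RNA group of 10 was 7.87 in replicate 1 and 7.86 in replicate 2. In the third group it was 8.05 and 8.24, in the seventh 6.53 and 6.86, and in the highest 3.57 and 3.90. The difference between the highest and the lowest group was −4.29 and −3.96 in the separate lists (−4.13 ± 0.233, SD, n = 2), larger than the spread between them. It was −6.03 with peaks of −log10 q of at least 10 alone. With the 10 groups formed over genes with a peak it was −3.61. Overlap with the other list went the opposite way: 79.8% and 86.2% of peaks in the lowest group and 89.9% and 93.7% in the highest were found in both. Median width was smallest in the lowest group, 116 and 118 bp, and largest in the eighth, 153 and 156 bp. Summits lay a median of 364 and 360 bp from the gene end in the lowest group and 284.5 and 272 bp in the highest. Genes of the highest group were also shorter, with a median span of 2418 bp against 3235.5 bp in the lowest. Their methylated genes had fewer peaks, a mean of 1.14 and 1.10 against 1.32 and 1.27. The part of span and peak number in the distances was not tested.

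**Figure D5:**
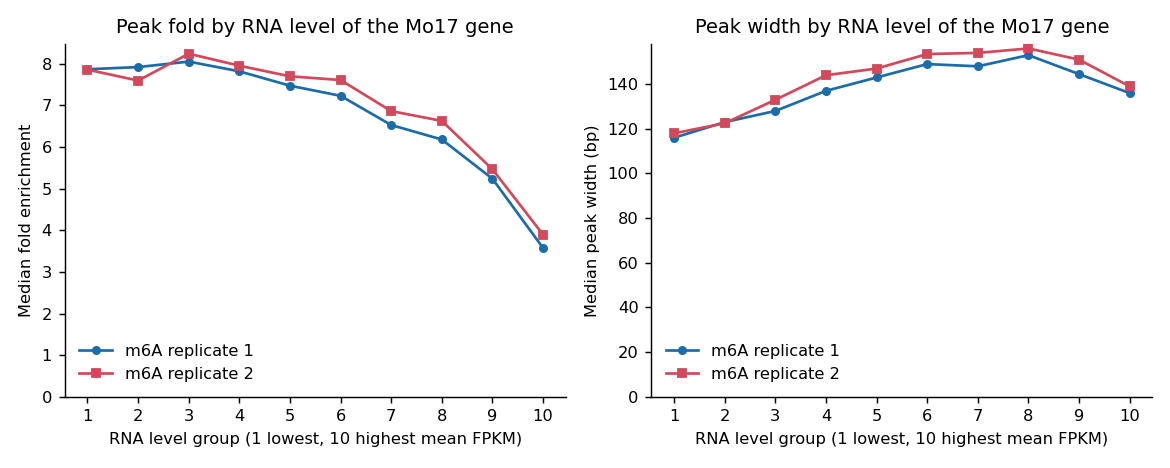
Median fold enrichment (left) and median width in bp (right) of peaks in expressed Mo17 genes, in 10 equal groups by mean FPKM, for each replicate list. Fold lies between 7.59 and 8.24 in the 3 lowest groups and is 3.57 and 3.90 in the highest, while width is largest in the eighth group, at 153 and 156 bp.

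The most abundant methylated genes illustrate the low folds, and all 6 had a single peak in each list. Zm00014a_032124 (chromosome 1, 205796438 to 205800607, minus strand), with FPKM of 892.9 and 857.5, had folds of 2.04 and 2.60 at 339 and 326 bp from the 3′ end. Zm00014a_006976 (chromosome 8, 163071255 to 163074972, minus strand), with FPKM of 627.2 and 672.1, had folds of 1.74 and 1.91 at 264 and 269 bp. The fold of 1.74 is the lowest in list 1. Zm00014a_007389 (chromosome 1, 224980513 to 224984758, plus strand), with FPKM of 604.1 and 569.9, had folds of 1.97 and 3.19 at 413 and 433 bp. Despite the low folds, the lists placed the summits of these genes within 20 bp of each other.

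Zm00014a_044383 (chromosome 2, 208666465 to 208669618, plus strand) had FPKM of 493.1 and 535.6 and folds of 2.86 and 2.92 at 185 and 182 bp. Zm00014a_027975 (chromosome 7, 32856898 to 32868660, minus strand) had FPKM of 495.4 and 507.2 and folds of 2.14 and 2.25 at 214 and 219 bp. Zm00014a_042292 (chromosome 5, 212813542 to 212819088, plus strand) had FPKM of 495.2 and 481.5 and folds of 2.16 and 2.44, with the summit at 485 bp in both lists. None of these 6 genes would be methylated with peaks of at least 5-fold alone.

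The 4 expressed genes without a peak of highest FPKM, chosen for both, were short. Abundant genes that were not methylated were not all short: among genes of 7137 to 10866 bp the highest mean FPKM was 4635, above the 875.2 of Zm00014a_032124, the most abundant methylated gene. Zm00014a_018712 (chromosome 2, 104795003 to 104795083, minus strand), with a span of 81 bp, had FPKM of 8684 and 8672. Zm00014a_040415 (chromosome 1, 182258993 to 182259932, minus strand), with 940 bp, had 7650 and 7975. Zm00014a_018652 (chromosome 7, 147932432 to 147933220, minus strand), with 789 bp, had 6217 and 6841, and Zm00014a_025879 (chromosome 9, 39641980 to 39643041, plus strand), with 1062 bp, had 6304 and 5830. These 4 spans lie in the size range in which 1.14% to 4.38% of expressed genes were methylated.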

How the data were processed

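In the authors' m6A-seq peak files, 1 per sample, the deposited fold enrichment is a ratio of pull-down over a control. The deposited −log10 p and −log10 q values came from the authors' peak calling, and the deposited integer score was not used here. RNA levels are the authors' FPKM for each gene, listed with span and strand. Per the submitters' processing notes, Trimmomatic 0.35, HISAT2, MACS2 and the build B73 RefGen_v4 were used. The sources used here do not give the Mo17 build, the control or how FPKM were made, so Mo17 coordinates carry no build name. The FPKM hold no counts, so depth is unknown and only the spread between replicates is given.

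The summit was taken 1 base after the sum of the peak start and the summit offset. A gene whose span differed between the RNA tables was left out (1 in each line). Peaks overlapping by 1 bp or more counted as shared. Values are given per list or as mean ± SD over 2 lists, with no p across peaks or genes. Mo17 and B73 lists were compared with an exact permutation test over samples. Chromosome length is the end of the last listed feature, and RNA groups used the mean FPKM of both libraries. Polysome tables were not used.

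Genes were named by rule among expressed genes: the 6 methylated genes of highest fold (the lower of the 2 lists), of most peaks and of highest FPKM, the 4 unmethylated genes of highest FPKM, the 4 shortest methylated and the 4 longest unmethylated. The members, rules and groups were chosen with earlier results of these data known. No Mo17 identifier matched a name (0 of 37844), so no gene list by function was used. Placement and overlap were tested on simulated data. Python 3.11.15, pandas 2.3.3, numpy 2.4.6 and scipy 1.17.1 were used. Alternatives were peaks of at least 5-fold or −log10 q of at least 10, other placements, other FPKM limits, and leaving out each replicate.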

Additional observations from a re-analysis of the deposited data

Results flagged for a closer look

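Peaks with summits outside every Mo17 gene span are not used in the comparisons over genes. They numbered 3765 in list 1 (23.0%) and 3300 in list 2 (22.2%), and are listed because the gene comparisons leave them out. The flag needed more than the 3 that a count of 0 would allow. That limit is not an expected number of summits outside spans, so passing it tests nothing. Their median fold was 7.11 in list 1 and 7.0 in list 2, against 6.74 and 7.0 for summits inside spans. They were narrower, with median widths of 115 and 119 bp against 137 and 142 bp. Of the peaks outside spans, 73.5% and 82.6% overlapped a peak of the other list, against 83.8% and 90.1% of those inside.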

How the results depend on the processing

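With peaks of at least 5-fold alone, median width was 141.5 bp, median fold 7.85, the share found in the other list 77.1%, the share in exactly 1 span 74.8%, genes with 2 or more peaks 12.3%, median distance to the 3′ end 300 bp, summits in the last 10% of the span 66.0%, the chromosome density ratio 1.37 and the methylated share 30.2%. The share found in the other list was 84.9% with all peaks, and the 5-fold limit was set on both lists. With all peaks, 63.0% of summits lay in the last 10% of the span. With this limit the contrast of the highest with the lowest of 10 groups was −12.6 points by RNA level, a reversal. By span it was 69.2 points. With −log10 q of at least 10 the values were 173 bp, 9.23, 80.5% in exactly 1 span, 1.07 peaks per gene, 5.36% with 2 or more, 263 bp, 76.5% in the last 10%, a ratio of 1.37, 26.6% methylated, and contrasts of 6.5 points by RNA level and 58.7 points by span. Spans extended by 500 bp gave 78.1% in exactly 1 span, 295.5 bp, 65.4% in the last 10% and contrasts of 15.1 and 75.3 points. Counting every span that holds a summit gave 77.4% and a span contrast of 81.7 points. The density ratio was 1.10 per 1000 genes and 1.10 per 1000 expressed genes.

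The methylated share and its contrasts by RNA level and span were 40.2%, 24.5 and 78.4 points at FPKM of at least 0.5, 48.8%, −19.4 (a reversal) and 85.8 points at FPKM of at least 5, and 22.9%, 33.2 and 60.3 points with no FPKM filter. Each FPKM limit changes which genes form the lowest RNA group, so these RNA contrasts compare different genes. A peak in either list gave 48.6% and a span contrast of 84.7 points. Within the middle groups of the other measure the contrasts were 32.7 points by RNA level and 84.8 by span. Leaving out 1 m6A or RNA replicate gave methylated shares of 41.0% to 46.4%, RNA contrasts of 13.7 to 21.0 points and span contrasts of 79.1 to 83.4 points. The share found in the other list cannot be given without one list. The cause of these changes was not tested.

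With the replicate block, pairing Mo17 and B73 lists of the same number, the differences kept their values (95 bp for the distance) and the exact sign-flip p was 0.5, the smallest it can give, for all but the overlap share, where it was 1. The numbers share only a label, and no check of pairing is possible over 2 pairs. The overlap share, Mo17 minus B73, was 0.299 points and turned to −0.742 with peaks of at least 5-fold. It was −0.322 between the lists of replicate 1 and 0.920 between those of replicate 2. Each of these shares still uses the other replicate, so they do not show the result with a replicate left out. Restricting B73 to its own gene models, an alternative chosen after seeing the data like those for single genes, distance by span and fold by RNA level, changed no value. Every digit stayed the same, so this setting is no check on the differences. Among the 30 named genes, 22 with peaks, 7 lost all peaks at 5-fold, 7 at −log10 q of at least 10 and 3 with extended spans, while Zm00014a_013557 gained a peak in 1 list with extended spans. Unknown depth limits what low RNA groups can show.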

Other observations

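Of 12178 Mo17 genes listed at an FPKM of 0 in both RNA libraries, 95 (0.780%) nevertheless had a peak of their own in both m6A lists. Their median span was 5064 bp and their median top fold 8.28 in list 1 and 7.99 in list 2, against 7.53 and 7.67 for methylated expressed genes. The spans of 7 of the 95 overlap another gene. Since the RNA tables give no counts, it is known only that these genes are listed at 0.

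Fold values were not continuous. In list 1, 41.5% of the peaks carried a fold, to 5 decimals, that at least 20 peaks shared, and in list 2 the share was also 41.5%. The commonest were 6.68 in list 1 (239 peaks) and 5.71 in list 2 (292 peaks), and the 4 commonest values lay at regular steps of 0.463 in list 1 and 0.455 in list 2. Such folds went with low RNA level: they made up 66.0% and 68.8% of the peaks in the lowest of 5 RNA groups of expressed genes and 5.55% and 5.70% in the highest. Their part in the folds of weakly expressed genes was not tested.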
